A study of Mus musculus with 24 samples.

Results

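Gangliosides are sialic acid-bearing glycosphingolipids of the outer plasma membrane and are abundant in neurons. They are built in the Golgi by enzymes that act in a fixed order on ceramide, so that the set of enzymes a cell expresses shapes the set of gangliosides it can make. GD3 is a prominent ganglioside of the mammalian retina. The 7 genes described here cover the main branch points of the route: Ugcg, St3gal5, St8sia1, B4galnt1, St8sia5, St6galnac5 and A4galt. They were chosen for their place in this route, with earlier results of these data known. Probe sets were named by matching the RefSeq transcript in their identifiers, and the 7 are among 909 genes named in that way. Each had 1 probe set.

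The samples were P347S+ retinas ("RP Mutant") and P347S- retinas ("Normal") of mice aged 1, 2, 3 and 4 months, with 3 arrays in each of 8 groups and 24 arrays in all. P347S is a rhodopsin mutation carried by a transgenic mouse line in which rods, the photoreceptors of dim light, die slowly. The strain, the promoter of the transgene and any pooling of animals are not given in the sources used here, and sex is labelled as unknown. RNA came from retina, so fewer cells of a type and less RNA per cell cannot be told apart in any value below. Every value is a log2 RMA signal, and every difference is mutant minus normal on that scale, with the standard error (SE) of the limma fit to all arrays and a p adjusted over all 1246 probe sets with the Benjamini-Hochberg method. A difference was called when its adjusted p was under 0.05. Nothing in the labels ties the arrays to individual mice, so each p measures only the spread between these samples, which may be technical.

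Over the 4 ages 3 of the 7 genes rose in mutant retinas, 1 fell and 3 did not pass. Ugcg, the enzyme that commits ceramide to the glucosylceramide route, St8sia5, which adds sialic acid late in the pathway, and St6galnac5, which adds the sialic acid of alpha-series gangliosides, were higher by 1.22-fold, 1.16-fold and 1.25-fold. St8sia1, the GD3 synthase, was 1.35-fold lower. Over all 1246 probe sets 22.6% were called in this comparison, 13.8% higher and 8.83% lower. The median difference of the 7 genes was 0.19, against -0.03 for all probe sets. Without the 3 arrays that stand apart by their Grifin signal, described further on, the same comparison gave adjusted p of 0.00258 for Ugcg, 0.0265 for St8sia5, 0.0114 for St6galnac5 and 0.00113 for St8sia1.

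Sequence before the RefSeq start was available for 4 of the 7 genes (Ugcg, St3gal5, St8sia1 and A4galt). The 250 bases before the start are shown for Ugcg and St8sia1, the genes with the smallest p in each direction, so that the promoters of a gene that rose and a gene that fell can be set side by side. Capitals mark the GC box, GGGCGG, on either strand. Ugcg lies at chr4:59189300-59189549 on the plus strand and St8sia1 at chr6:142964453-142964702 on the minus strand of GRCm38.p6.
Ugcg: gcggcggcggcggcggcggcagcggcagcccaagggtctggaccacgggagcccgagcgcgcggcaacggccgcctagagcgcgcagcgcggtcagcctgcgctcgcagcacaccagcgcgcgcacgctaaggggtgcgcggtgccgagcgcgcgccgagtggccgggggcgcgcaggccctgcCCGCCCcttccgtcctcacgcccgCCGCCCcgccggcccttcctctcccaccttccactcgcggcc
St8sia1: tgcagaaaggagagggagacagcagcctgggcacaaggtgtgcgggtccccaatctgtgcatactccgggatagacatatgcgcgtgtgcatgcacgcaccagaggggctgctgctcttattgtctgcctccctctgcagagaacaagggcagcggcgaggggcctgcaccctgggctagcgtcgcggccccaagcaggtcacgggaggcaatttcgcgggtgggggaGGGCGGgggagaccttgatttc
The Ugcg window held 2 GC boxes, both on the minus strand of the gene and starting 66 and 42 bases before the start, and its GC content was 80.4%. The St8sia1 window held 1, on the plus strand 22 bases before the start, at a GC content of 63.6%. St3gal5 had 2 and A4galt had 3. Of 32841 promoters of the same length 32.7% hold the GC box. On either strand, 4 other motifs were absent from all 4 windows: the TATA box (TATAAA, 12.4% of promoters), the binding letters of the photoreceptor factor CRX (TAATCC, 6.25%), the E-box (CACGTG, 6.02%) and the CRE (TGACGTCA, 1.55%). A match or its absence describes the letters of the window only.

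Ugcg, glucosylceramide synthase, opens the route, and its difference was above 0 at all 4 ages. Over 12 arrays each, it read 9.17 at the lowest and 9.57 at the highest in mutant retinas, against 8.93 and 9.33 in normal retinas. The difference over the 4 ages was 0.28 ± 0.05 (SE, adjusted p = 0.000528). At 1 month the arrays read 9.22, 9.17 and 9.36 in mutant and 9.22, 9.08 and 8.93 in normal retinas, and the groups overlapped. At 3 months they read 9.40, 9.55 and 9.49 in mutant and 9.02, 9.14 and 9.33 in normal retinas. At 4 months they read 9.28, 9.46 and 9.57 in mutant and 9.03, 8.94 and 9.02 in normal retinas. In both of these later ages every mutant array was above every normal array.

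The Ugcg difference was called at 4 months (0.44 ± 0.11, adjusted p = 0.00773) and missed the threshold at 3 months (0.32 ± 0.11, adjusted p = 0.0562). At 1 and 2 months it was 0.18 ± 0.11 (adjusted p = 0.692) and 0.20 ± 0.11 (adjusted p = 0.41). Leaving out 1 array brought the 3-month difference under the threshold for mutant 2 months replicate 1 (adjusted p = 0.0405), mutant 4 months replicates 1 (0.0486) and 3 (0.0485), normal 2 months replicate 1 (0.0462) and normal 3 months replicate 3 (0.0268). These were 5 of 24 such refits, over which the 3-month difference went down to 0.25 (adjusted p up to 0.189). Among 11 refits with another setting 1 passed (adjusted p up to 0.115). The probe sets of Ugcg, St8sia1 and St8sia5 carry the suffix s, which marks probes that may match more than 1 transcript.

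St3gal5 makes GM3, the first ganglioside of the main series, from lactosylceramide. It was not called over the 4 ages (0.19 ± 0.07, 95% interval 0.04 to 0.34, adjusted p = 0.0698) or at any age. At 3 months its arrays read 9.31, 9.31 and 9.78 in mutant and 9.20, 9.13 and 8.92 in normal retinas. These groups did not overlap, although the difference of 0.38 ± 0.15 missed the threshold (adjusted p = 0.0892). At 4 months the arrays read 9.42, 9.54 and 9.16 in mutant and 8.94, 9.18 and 9.0 in normal retinas, and 1 mutant array fell within the normal range. At single ages it passed at 3 months when each array was centred on its median (0.42, adjusted p = 0.043) and after quantile normalization again (0.37, 0.0423), and at 4 months with array weights (0.41, 0.0272). The difference over the 4 ages passed when each array was centred on its median (0.21, adjusted p = 0.0218), after quantile normalization again (0.19, 0.021) and with array weights (0.19, 0.0305). Without 1 array it passed for mutant 2 months replicate 2 (0.0328), mutant 4 months replicate 3 (0.0395), normal 1 month replicate 3 (0.0484) and normal 2 months replicate 3 (0.0384). These were 3 of 10 refits with another setting and 4 of 24 without 1 array, with adjusted p up to 0.0899 and 0.132. At 3 months 2 of 11 and 0 of 24 passed, and without 1 array the difference went down to 0.23 (adjusted p up to 0.352). At 4 months 1 of 11 and 0 of 24 passed.

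St8sia1 turns GM3 into GD3 by adding the second sialic acid, the entry to the b-series gangliosides, and it was the only one of the 7 that fell. Its signal in mutant retinas was 8.70 at the lowest, 8.99 at the median and 9.30 at the highest, against 8.97, 9.48 and 9.99 in normal retinas. The difference over the 4 ages was -0.43 ± 0.07 (adjusted p = 0.000212), and it passed in each of the 10 refits with another setting and in each of the 24 that left out 1 array.

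By age, St8sia1 showed no separation at 1 month, where the arrays read 9.27, 9.14 and 9.30 in mutant and 9.31, 9.33 and 9.11 in normal retinas. At 2 months they read 9.11, 9.17 and 8.97 in mutant and 9.24, 9.54 and 9.99 in normal retinas. At 3 months they read 8.86, 8.70 and 8.77 in mutant and 9.56, 8.97 and 9.48 in normal retinas. From 2 months on every mutant array was below every normal array of its age. The 4-month values were 9.01, 8.82 and 8.78 in mutant and 9.48, 9.58 and 9.47 in normal retinas, again without overlap. The difference was -0.01 ± 0.15 at 1 month (adjusted p = 0.99), -0.50 ± 0.15 at 2 months (adjusted p = 0.0584), -0.56 ± 0.15 at 3 months (adjusted p = 0.0199) and -0.64 ± 0.15 at 4 months (adjusted p = 0.00565). The last corresponds to a 1.56-fold lower signal.

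Ordered from the lowest mean, mutant retinas of 3 months came first with 8.78 ± 0.08 (SD, n = 3), then those of 4 months with 8.87 ± 0.12, those of 2 months with 9.08 ± 0.10 and those of 1 month with 9.24 ± 0.08. Normal retinas followed, at 9.25 ± 0.12 for 1 month, 9.34 ± 0.32 for 3 months, 9.51 ± 0.06 for 4 months and 9.59 ± 0.37 for 2 months. All 4 mutant means were below all 4 normal means. Neighbours in this order differed by less than the larger of their SDs, except mutant retinas of 2 months against mutant retinas of 1 month and of 4 months. The call at 3 months was lost without mutant 3 months replicate 2 (adjusted p = 0.0656) or 3 (0.0581), without normal 3 months replicate 1 (0.0992) or 3 (0.0611), and with only the 6 arrays of that age (0.0843). At 2 months the difference passed without normal 2 months replicate 1 (-0.68, adjusted p = 0.0084) and without normal 3 months replicate 2 (0.0298). These were 2 of 24 refits that left out 1 array, over which the adjusted p reached 0.411. The 2-month difference was smallest, -0.31, without normal 2 months replicate 3. The normal array of 2 months with the highest St8sia1 value, 9.99, also had the highest signal of Dcn (decorin, a proteoglycan of connective tissue), 6.90. With Grifin and Dcn as covariates the differences at 2, 3 and 4 months were -0.41, -0.61 and -0.66 (adjusted p = 0.419, 0.0264 and 0.00904).

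**Figure D1:**
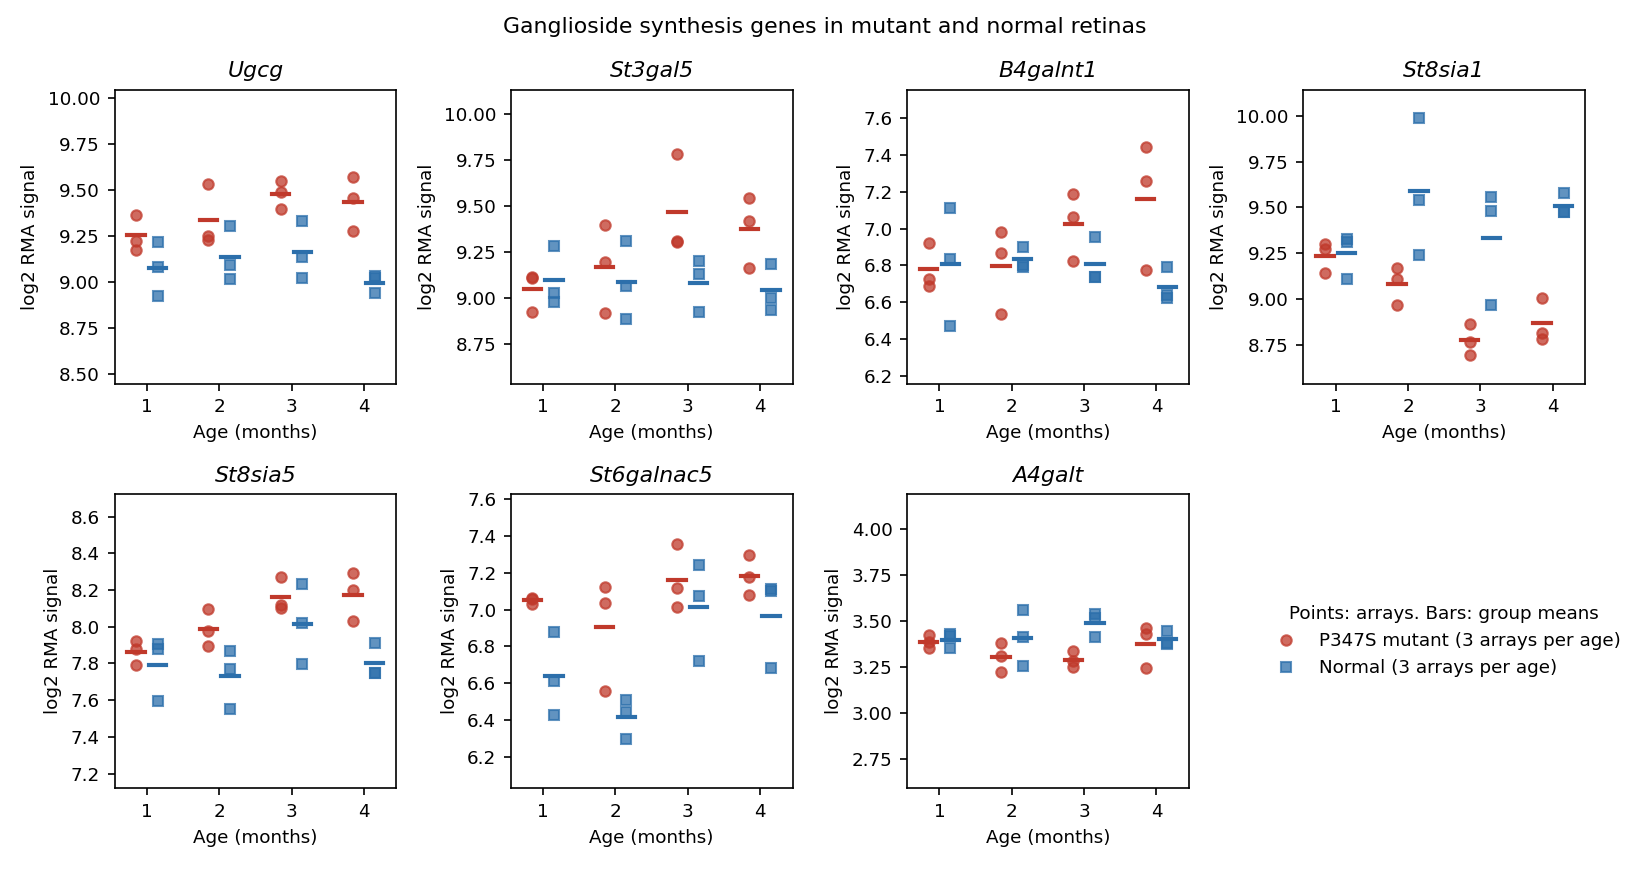
Log2 RMA signal of the 7 ganglioside synthesis genes (vertical axes, each spanning the same log2 range) against age in months, with 1 point per array and a bar at each group mean, mutant left of normal. The St8sia1 points of mutant retinas lie below all normal points at 2, 3 and 4 months, while the Ugcg points of mutant retinas lie above all normal points at 3 and 4 months.

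B4galnt1 adds N-acetylgalactosamine and so turns GM3 and GD3 into GM2 and GD2, the precursors of the complex gangliosides of neurons. It did not pass over the 4 ages (0.16 ± 0.08, 95% interval -0.01 to 0.32, adjusted p = 0.159). At 4 months the arrays read 7.26, 7.44 and 6.78 in mutant and 6.62, 6.79 and 6.64 in normal retinas. Replicates 1 and 2 of the mutant group were above all normal arrays and replicate 3 was within their range. The difference there was 0.48 ± 0.16 (adjusted p = 0.0538). At 1, 2 and 3 months it was -0.03, -0.04 and 0.22 (SE 0.16 each), with adjusted p from 0.373 to 0.99.

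Mutant 4 months replicate 3 had the second highest Dcn signal of the 24 arrays, 6.51. Within its group it had the lowest signals of B4galnt1, St3gal5, St8sia5, St8sia1 and A4galt but the highest of Ugcg. The part of this array's composition in these values was not tested. Without it the B4galnt1 difference at 4 months was 0.67 (adjusted p = 0.0056) and that over the 4 ages 0.21 (adjusted p = 0.0445). The 4-month difference also passed without mutant 2 months replicate 2 (0.0431), normal 1 month replicate 2 (0.0335) and normal 1 month replicate 3 (0.0391), with array weights (0.61, adjusted p = 0.00435) and with each array centred (0.51, 0.0246). It passed in 4 of 24 refits without 1 array, over which it went down to 0.33 (adjusted p up to 0.268). Among 11 refits with another setting it passed in 4 and also went down to 0.33 (adjusted p up to 0.143). With Grifin and Dcn as covariates it was 0.46 (adjusted p = 0.0803). After quantile normalization again the value over the 4 ages was 0.05 (adjusted p = 0.683). Over the 4 ages 1 of 24 refits without 1 array passed and 0 of 10 with another setting.

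St8sia5 and St6galnac5 act at the end of the route. St8sia5 adds sialic acid to the terminal residues of complex gangliosides such as GD1a and GT1b, and its mean was higher in mutant retinas at each age, although a single age passed. It read 7.79 at the lowest, 8.06 at the median and 8.29 at the highest in mutant retinas, against 7.55, 7.83 and 8.23 in normal retinas, with a difference over the 4 ages of 0.21 ± 0.06 (adjusted p = 0.00835). At 4 months the arrays read 8.20, 8.29 and 8.03 in mutant and 7.75, 7.91 and 7.75 in normal retinas, without overlap. The groups did not overlap at 2 months either, with 8.10, 7.89 and 7.98 in mutant and 7.87, 7.55 and 7.77 in normal retinas.

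The St8sia5 difference was called at 4 months (0.37 ± 0.11, adjusted p = 0.027) and not at 1 month (0.07 ± 0.11, adjusted p = 0.941), 2 months (0.26 ± 0.11, 0.242) or 3 months (0.15 ± 0.11, 0.387). The 4-month call was lost without mutant 4 months replicate 1 (adjusted p = 0.0813) or 2 (0.124) and without normal 4 months replicate 1 (0.0949) or 3 (0.105). It was also lost without the 3 arrays with high Grifin (0.0848), with only the 6 arrays of that age (0.0559) and after quantile normalization again, where the difference was 0.22 (adjusted p = 0.131).

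St6galnac5, known from brain as the enzyme that makes GD1 alpha, did not overlap between the groups at 1 and 2 months and overlapped later, while neither a single age nor the change of the difference with age passed (limma F test, adjusted p = 0.692). At 1 month the arrays read 7.06, 7.03 and 7.06 in mutant and 6.43, 6.61 and 6.88 in normal retinas. At 2 months they read 7.12, 7.04 and 6.56 in mutant and 6.44, 6.51 and 6.30 in normal retinas. There every mutant array was above every normal array. At 3 months, with 7.01, 7.36 and 7.12 in mutant and 7.08, 6.72 and 7.24 in normal retinas, and at 4 months, with 7.30, 7.08 and 7.18 in mutant and 7.12, 6.69 and 7.10 in normal retinas, the groups overlapped.

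For St6galnac5 the difference over the 4 ages was 0.32 ± 0.08 (adjusted p = 0.00494), and no single age passed. The difference was 0.41 ± 0.15 at 1 month (adjusted p = 0.344), 0.49 ± 0.15 at 2 months (0.0793), 0.15 ± 0.15 at 3 months (0.539) and 0.22 ± 0.15 at 4 months (0.424). After quantile normalization again the difference was -0.0071 at 3 months and 0.04 at 4 months (adjusted p = 0.988 and 0.926). Normal retinas themselves ranged from a mean of 6.42 at 2 months to 7.01 at 3 months, a span wider than the genotype difference. Without mutant 2 months replicate 3, the lowest mutant array, the 2-month difference was 0.66 (adjusted p = 0.0157). This was 1 of 24 refits without 1 array, over which the 2-month difference went down to 0.38 (adjusted p up to 0.293). With array weights the differences at 1 and 2 months passed (adjusted p = 0.0192 and 0.0494). These were 1 of 11 and 1 of 12 refits with another setting (adjusted p up to 0.485 and 0.464). Leaving out 1 array gave 0 of 24 at 1 month.

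A4galt makes Gb3 from lactosylceramide and so leads into the globo series, away from gangliosides. Its signal was low, with a mean of 3.38 at the 16.9th percentile of all probe sets, where background is not known. Mutant arrays lay between 3.22 and 3.46, and normal arrays between 3.26 and 3.56. Over the 4 ages the difference was -0.08 ± 0.04 (95% interval -0.16 to -0.01, adjusted p = 0.112). At 3 months the groups did not overlap, with 3.29, 3.25 and 3.34 in mutant and 3.42, 3.54 and 3.52 in normal retinas, and the difference of -0.20 ± 0.08 missed the threshold (adjusted p = 0.0873). Without normal 2 months replicate 2 the difference over the 4 ages passed (-0.10, adjusted p = 0.0439). This was 1 of 24 refits without 1 array, with adjusted p up to 0.202. Among 8 refits with another setting 0 passed (adjusted p up to 0.23).

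Calls among the 7 genes came at 3 and 4 months, the ages with the largest shares of all probe sets called. In limma 0 of 7 passed at 1 month, where 1 had an unadjusted p under 0.05 and 0.321% of all probe sets were called. At 2 months 0 of 7 passed and 3 had an unadjusted p under 0.05, with 3.45% of all probe sets called (1.52% higher and 1.93% lower). St8sia1 alone passed at 3 months, where 12% of all probe sets were called (6.66% higher and 5.38% lower). At 4 months Ugcg and St8sia5 rose and St8sia1 fell, against 12.9% of all probe sets called (9.47% higher and 3.45% lower).

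A second count took genes with every mutant array of an age on the same side of every normal array. At 1 month 1 of 7 was higher in this way (St6galnac5), against 22.1% of all probe sets (10.4% higher, 11.7% lower). At 2 months St8sia5 and St6galnac5 were higher and St8sia1 lower, against 17.4% (9.07% higher, 8.35% lower). At 3 months Ugcg and St3gal5 were higher and St8sia1 and A4galt lower, against 32.6% (13.2% higher, 19.4% lower). At 4 months Ugcg and St8sia5 were higher and St8sia1 lower, against 30.0% (17.1% higher, 12.9% lower). With 3 arrays on each side an exact permutation p is at least 0.1, so the calls at 1 age depend on limma's estimate of the spread over all arrays.

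**Figure D2:**
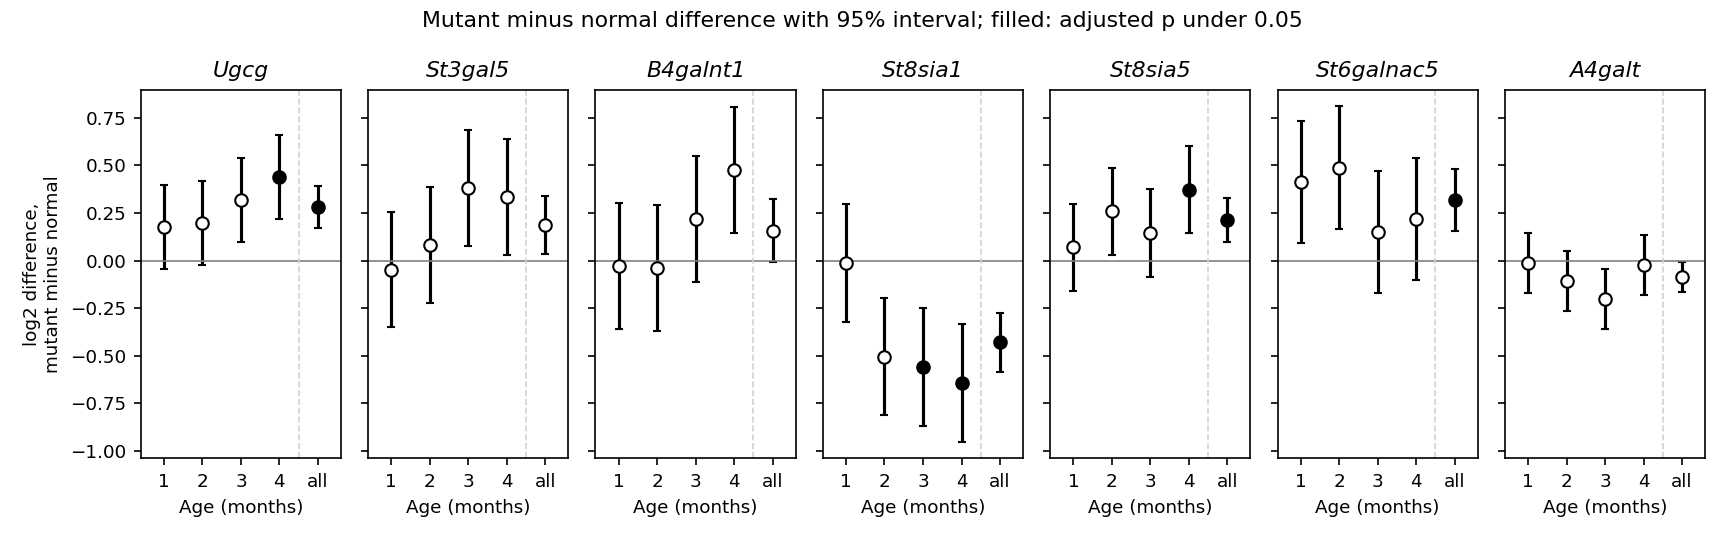
Mutant minus normal difference in log2 RMA signal (vertical axis) of each gene at 1, 2, 3 and 4 months and over all ages (horizontal axis), with 95% intervals from the limma fit to 24 arrays. Filled points had an adjusted p under 0.05: Ugcg and St8sia5 at 4 months, St8sia1 at 3 and 4 months, and Ugcg, St8sia1, St8sia5 and St6galnac5 over all ages.

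Whether the genotype difference itself changed with age was tested with a moderated F test over the 3 later differences against that at 1 month. In limma 0 of 7 genes passed and 0.321% of all probe sets were called. An unadjusted p under 0.05 was found for St8sia1 alone, whose limma adjusted p was 0.294. The difference at 4 months less the one at 1 month, tested alone, did not pass for any of the 7 either. It was -0.63 ± 0.21 for St8sia1 (limma adjusted p = 0.167), 0.50 ± 0.23 for B4galnt1 (0.401), 0.38 ± 0.21 for St3gal5 (0.509), 0.30 ± 0.16 for St8sia5 (0.485) and 0.26 ± 0.15 for Ugcg (0.576). For St6galnac5 it was -0.19 ± 0.22 (adjusted p = 0.849) and for A4galt -0.01 ± 0.11 (0.977).

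Within mutant retinas 0 of 7 genes passed for 4 months against 1 month in limma (2.65% of all probe sets called, 1.52% higher and 1.12% lower), and 4 had an unadjusted p under 0.05. These were St8sia1 (-0.37 ± 0.15, adjusted p = 0.237), B4galnt1 (0.38 ± 0.16, 0.254), St3gal5 (0.33 ± 0.15, 0.282) and St8sia5 (0.31 ± 0.11, 0.15). With array weights 2 of the 7 passed, and without mutant 4 months replicate 3 the number was 1. In normal retinas 0 of 7 passed (0.00% of all probe sets called) and 1 had an unadjusted p under 0.05, St6galnac5 (0.33 ± 0.15, adjusted p = 0.638). A p that misses the threshold does not show that these genes were stable with age.

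For the 4 genes called over the 4 ages, the named genes most alike were sought by the root mean square difference between the 8 group means, after each probe set was centred on its own mean, over 962 probe sets of other genes. St8sia1 was nearest to Galnt10 (0.09), which starts O-glycans, and to B4galt1 (0.10), a galactosyltransferase of glycoproteins, against its own deviation of 0.27. Ugcg, with a deviation of 0.16, was nearest to the chondroitin sulfotransferase Chst11 (0.05) and to Havcr2 (0.05), an immune receptor. St6galnac5, with a deviation of 0.25, was nearest to the sialyltransferase St3gal4 (0.07) and to Pgm2 (0.12). St8sia5, with a deviation of 0.16, was nearest to Fut4 (0.05), a fucosyltransferase whose own difference did not pass (adjusted p = 0.0759), and to the lysosomal enzyme Gusb (0.06). The likeness is a description over 8 groups.

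The step between Ugcg and St3gal5 was measured as well. Of 11 genes listed for lactosylceramide and its precursors 3 were measured, Ugcg among them, and all 3 rose over the 4 ages, where 13.8% of all probe sets were called higher, with a median difference of 0.35 against -0.03 for all probe sets. B4galt5, the main lactosylceramide synthase, read 8.25, 8.67 and 9.14 (lowest, median, highest) in mutant and 7.95, 8.22 and 8.51 in normal retinas. Its difference was 0.44 ± 0.06 (adjusted p = 1.83e-05), with 0.19, 0.22, 0.51 and 0.83 (SE 0.12 each) from 1 to 4 months. B4galt6, the second lactosylceramide synthase, differed by 0.35 ± 0.09 (adjusted p = 0.0103), and at the single ages it passed at 3 months (0.79 ± 0.18, adjusted p = 0.0093).

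Of the 12 listed enzymes of the ganglioside series, all measured and 5 of them among the 7 genes, 3 rose, 2 fell and 7 did not pass (median 0.03), against 22.6% of all probe sets called. After quantile normalization again 9 of the 12 passed, with 318 of all 1246 probe sets called. St8sia3, which extends sialic acid chains on glycoproteins and gangliosides, differed by 0.44 ± 0.06 (adjusted p = 6.52e-06), and St3gal1, which caps galactose of O-glycans and of gangliosides, by -0.34 ± 0.07 (adjusted p = 0.0015). St3gal1 read 9.08, 9.57 and 9.78 (lowest, median, highest) in mutant and 9.61, 9.87 and 10.12 in normal retinas. B3galt4, which makes GM1 and GD1b, did not pass (-0.15 ± 0.07, adjusted p = 0.143). The sialyltransferases of this pathway thus held members called in both directions, with St8sia1 and St3gal1 lower and St8sia3, St8sia5 and St6galnac5 higher.

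**Figure D3:**
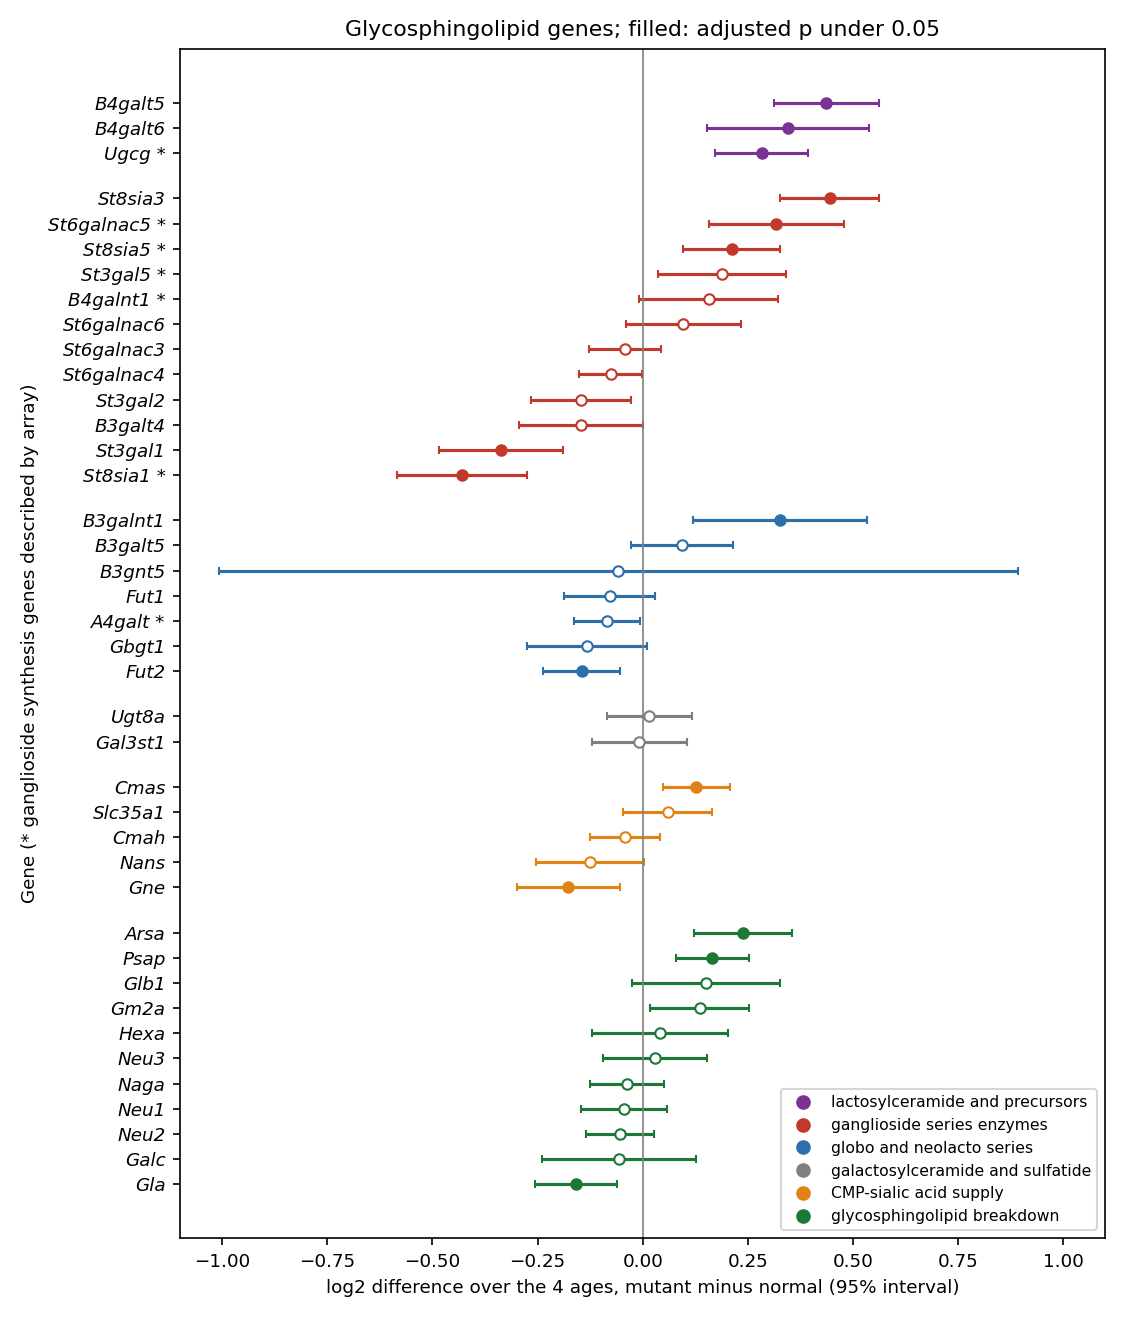
Mutant minus normal difference in log2 RMA signal over the 4 ages (horizontal axis, with 95% intervals) of the measured glycosphingolipid genes, grouped by list and ordered by size within each list. Filled points had an adjusted p under 0.05; the 3 lactosylceramide genes lie above 0, while the ganglioside series runs from 0.44 for St8sia3 to -0.43 for St8sia1.

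Calls in the remaining lists are read against the 22.6% of all probe sets called in this comparison. Of 7 genes of the globo and neolacto series B3galnt1, the globoside synthase, rose (0.33 ± 0.10, adjusted p = 0.0206) and Fut2 fell by 1 of its 2 probe sets (-0.15 ± 0.04, adjusted p = 0.0196; the other -0.04, 0.55). Neither of the 2 genes of galactosylceramide and sulfatide, Ugt8a (0.02 ± 0.05) and Gal3st1 (-0.01 ± 0.05), passed in limma, and 0 had an unadjusted p under 0.05. For the supply of CMP-sialic acid, the donor used by every sialyltransferase, 5 of 6 genes were measured: Cmas, which makes it, rose (0.13 ± 0.04, adjusted p = 0.0173) and Gne, which makes its precursor, fell by 0.18 ± 0.06 (adjusted p = 0.0325).

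Among 11 measured of 15 genes of glycosphingolipid breakdown 2 rose and 1 fell, a count near the 22.6% of all probe sets called. Arsa, which removes sulfate from sulfatide, differed by 0.24 ± 0.06 (adjusted p = 0.0038), Psap, the precursor of the saposins that present lipids to the hydrolases, by 0.17 ± 0.04 (adjusted p = 0.00696) and Gla, which degrades Gb3, by -0.16 ± 0.05 (adjusted p = 0.0173). Without the 3 arrays with high Grifin the lists gave 0 called genes of the globo and neolacto series and 1 for CMP-sialic acid. The count for CMP-sialic acid was also 1 without mutant 1 month replicate 1 or 2, mutant 2 months replicate 2, mutant 3 months replicate 2, mutant 4 months replicate 2 or 3, normal 1 month replicate 3, normal 2 months replicate 3, normal 3 months replicate 1 or normal 4 months replicate 2.

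Arrays and markers of other cells were read beside these results. Array medians lay between 5.15 and 5.34, and the 3 arrays of each group limit the precision. Grifin, known from the lens, stood at 10.16 to 11.33 in 3 arrays (mutant 2 months replicate 2, normal 2 months replicate 2, normal 4 months replicate 1) and at 5.69 to 8.77 in the remaining 21. In the 3 arrays St8sia1 read 9.17 to 9.54 and Ugcg 9.02 to 9.25. Marker genes were counted as risen over the 4 ages, where 22.6% of all probe sets were called and 13.8% were called higher. Of 12 listed microglial markers 5 were measured and 4 rose. Their summed linear signal was 414.1 to 818.4 in mutant and 262.4 to 339.2 in normal retinas, without overlap. Of 11 listed markers of reactive glia 5 were measured and 4 rose, with sums of 788.0 to 1744 in mutant and 531.8 to 1465 in normal retinas. Of 6 endothelial markers 3 were measured and 2 rose (sums of 110.1 to 186.8 in mutant and 106.6 to 139.0 in normal retinas).

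Of 5 listed markers of connective tissue, choroid and pigment epithelium Dcn and Lum (lumican, also a matrix proteoglycan) were measured, and neither passed over the 4 ages or at any age. At 2 months both had an unadjusted p under 0.05, with differences of -1.48 ± 0.51 for Dcn (limma adjusted p = 0.126) and -0.52 ± 0.21 for Lum (0.224). Their summed linear signal at that age was 25.6 to 34.3 in mutant and 30.4 to 132.9 in normal retinas. At this age the arrays of St8sia1, St8sia5 and St6galnac5 did not overlap. The same held for St8sia1 at 3 and 4 months, St8sia5 at 4 months and St6galnac5 at 1 month. St8sia1 overlapped at 1 month, St8sia5 at 1 and 3 months and St6galnac5 at 3 and 4 months. Among all probe sets the share without overlap was 17.4% at 2 months, 22.1% at 1 month, 32.6% at 3 months and 30.0% at 4 months. Any part of connective tissue RNA in these values was not tested. With Grifin and Dcn as covariates the 2-month difference of St8sia5 was 0.17 ± 0.12 and that of St6galnac5 0.41 ± 0.19 (adjusted p = 0.687 and 0.464).

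The retinal label could be checked against few markers. Of 12 listed rod markers only Gnb1, a transducin subunit found also outside rods, had a named probe set. Its arrays spanned 12.62 to 13.04 in mutant retinas, against 12.64 to 13.26 in normal retinas, and it fell by 0.21 ± 0.06 (adjusted p = 0.0121). No listed marker of cones or of bipolar and amacrine cells was among the named probe sets, and of 8 ganglion cell markers L1cam was measured and did not pass (0.17 ± 0.09, adjusted p = 0.172). The part of microglial, glial, endothelial or rod RNA in the differences of the ganglioside genes was not tested.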

How the data were processed

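RNA from 24 retina samples was measured on an Affymetrix array of glycan-related genes, as biotinylated cRNA from Trizol-extracted total RNA, per the labels. The authors deposited log2 values made with RMA, per the submitters' processing notes; its settings, and whether probe sets were filtered, are not given in the sources used here. The log2 scale was checked on the values (1.90 to 14.17). No array was identical to another, and nothing was scaled again.

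Probe sets (1246) were named through their transcript accession in a RefSeq gene table (assembly GRCm38.p6): 963 matched 909 genes. Promoter sequences are those of RefSeq on GRCm38.p6. All arrays entered 1 fit of the 8 group means with limma 3.58.1 in R 4.3.3 (lmFit, eBayes, 16 residual and 4.37 prior degrees of freedom), and the design's contrasts were tested on 2 sides with Benjamini-Hochberg adjustment over all probe sets. The fit was checked on simulated data. For genes with several probe sets list counts use the one with the highest mean signal.

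The members, lists, naming rule and alternatives were chosen with earlier results of these data known. The rule names every member, up to 4 called genes of each wider list by smallest p, the 2 nearest profiles of each called member, and markers that moved; B3galt4 and L1cam were named after their values were seen. Alternatives were centring, quantile normalization, filters at the 25th percentile and median of signal, an intensity trend, robust eBayes, array weights, a replicate block, Grifin and Dcn covariates, the 3 high-Grifin arrays or any 1 array left out, and only the arrays compared. Same-numbered mutant and normal arrays deviated together (correlation over 0.1) in 3 of 12 pairs, all at 2 months, so for that age a fit of its 6 arrays with the replicate block was added after the data were seen.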

Additional observations from a re-analysis of the deposited data

How the results depend on the processing

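Of 1215 recomputed differences of the 7 genes, none changed sign while called, 12 lost a call and 33 gained one. Over the 4 ages the same 4 genes passed under every alternative. With St3gal5 there were 5 calls with each array centred, after quantile normalization again and with array weights. Leaving out 1 array gave 4 to 6 calls. With array weights 1 gene passed at 1 month, 1 at 2 months, 5 at 4 months and 2 for 4 months against 1 month in mutant retinas. At 2 months 1 passed without probe sets below the 25th percentile and 1 without those below the median, where fewer probe sets were tested, and 0 to 1 with 1 array left out. At 3 months 2 passed with each array centred, 2 after quantile normalization, 2 without probe sets below the median, 0 with only the 6 arrays compared, and 0 to 2 with 1 array left out. At 4 months leaving out 1 array gave 2 to 4, and for age within mutant retinas 0 to 1. The causes were not tested. The replicate block gave 4 calls over the 4 ages, 0 at 1 month, 0 at 2 months (also 0 with the 6 paired arrays of that age alone), 1 at 3 months and 3 at 4 months, and changed no call of a member. Over all probe sets the calls at 1 month were 4, with 3 to 52 under alternatives other than leaving out 1 array, at 2 months 43 (1 to 68), at 3 months 150 (40 to 185), at 4 months 161 (103 to 240), for the change with age 4 (0 to 51), for age within mutant retinas 33 (22 to 94) and within normal retinas 0 (0 to 26). In the wider lists quantile normalization gave 9 calls of ganglioside series enzymes against 5, 5 of breakdown genes against 3 and 0 of globo and neolacto genes against 2.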
